A study of Homo sapiens with 6 samples.

Results

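Small nucleolar RNAs (snoRNAs) are mostly cut out of the introns of longer host transcripts, and the genes described here are the non-coding hosts: the SNHG family, GAS5 and ZFAS1. A row of the gene table was taken when its symbol was SNHG followed by a number, or was GAS5 or ZFAS1, with SNHG14 left out. This gave 30 of the 35036 rows. Of the 30 hosts, 28 held at least 1 named snoRNA or small Cajal body RNA (scaRNA) inside their listed span in GENCODE release 29 or RefSeq, 64 small RNAs in all, and SNHG27 and SNHG28 held none.

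The cells were U-2OS, a human osteosarcoma line, in 2 groups. The labels name 3 libraries SiSFPQ, read here as a small interfering RNA against SFPQ, and 3 libraries SiCtrl, read as its control. All 6 libraries were from cells under actinomycin D, an inhibitor of transcription to which RNA polymerase I is especially sensitive, and no untreated cells were analysed, so every value below is a level under that drug. SFPQ is a nuclear RNA-binding protein found in paraspeckles. The siRNA sequences and the dose and time of the drug are not given in the sources used here. The labels do not say whether the libraries came from separate cultures, so p-values rest on a spread between these libraries that may be technical. The test moderates that spread across rows, so p-values and SE do not measure the spread of a single host alone.

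Whole-table facts are brief. Library totals were 1298658 to 1599566 counts. SFPQ itself was not analysed here, which leaves the loss of its RNA unchecked, and 0 of 15 cell type markers looked for were in the table, which is one of non-coding genes. Counting did not keep strands apart: MALAT1 and TALAM1, on opposite strands of 1 locus, held 72563 and 72552 counts. A lower level in a library of bulk RNA can be fewer cells with the transcript or less of it per cell, which cannot be told apart here.

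Box C/D snoRNAs guide ribose methylation and box H/ACA snoRNAs guide pseudouridylation, mainly of ribosomal RNA, whereas scaRNAs guide the same changes in spliceosomal RNAs. After splicing frees the introns, the joined exons of many hosts reach the cytoplasm, are loaded with ribosomes and are destroyed by nonsense-mediated decay, so the amount of spliced host RNA and the amount of snoRNA need not follow each other. Many hosts, like ribosomal protein genes, begin transcription in a run of pyrimidines, the terminal oligopyrimidine (TOP) motif, which couples translation of an RNA to growth signals. The poly(A)-selected counts below are of the host RNA and not of the mature snoRNAs, which carry no poly(A) tail.

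Of the hosts tested, most were called higher in SiSFPQ cells. Of the 30 hosts, 29 passed the filter on low counts. With edgeR's quasi-likelihood test and Benjamini-Hochberg adjustment over all 6325 tested rows at 0.05, 20 of the 29 were called higher, 3 lower and 6 were not called. Across all tested rows 24.5% were called higher and 24.0% lower, 48.4% in either direction. Hosts have more counts than most rows, and 26 of them averaged at least 50 CPM (counts scaled to the table's own library total after TMM normalisation). Of these 26 hosts 18 were higher and 3 lower, where 31.4% of the 2266 rows at that level were higher and 34.9% lower. SiSFPQ and SiCtrl libraries did not overlap for 23 of the 29 tested hosts, against 54.0% of all tested rows. At 50 CPM or more they did not overlap for 21 of the 26 hosts, against 1592 of the 2266 rows. The median log2 fold change (SiSFPQ over SiCtrl) was 0.34 over the 29 hosts and 0.01 over all tested rows. Many hosts may share reads with other genes. For 11 tested hosts the GENCODE 29 exons overlap no coding exon, and no overlapping row has at least 1% of their count. Of these 11, 5 were called higher and 2 lower, with a median of 0.18. Judged by listed span instead of exons, 22 of the 30 hosts hold a coding exon, so the 11 are not known to be free of coding reads.

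**Figure D1:**
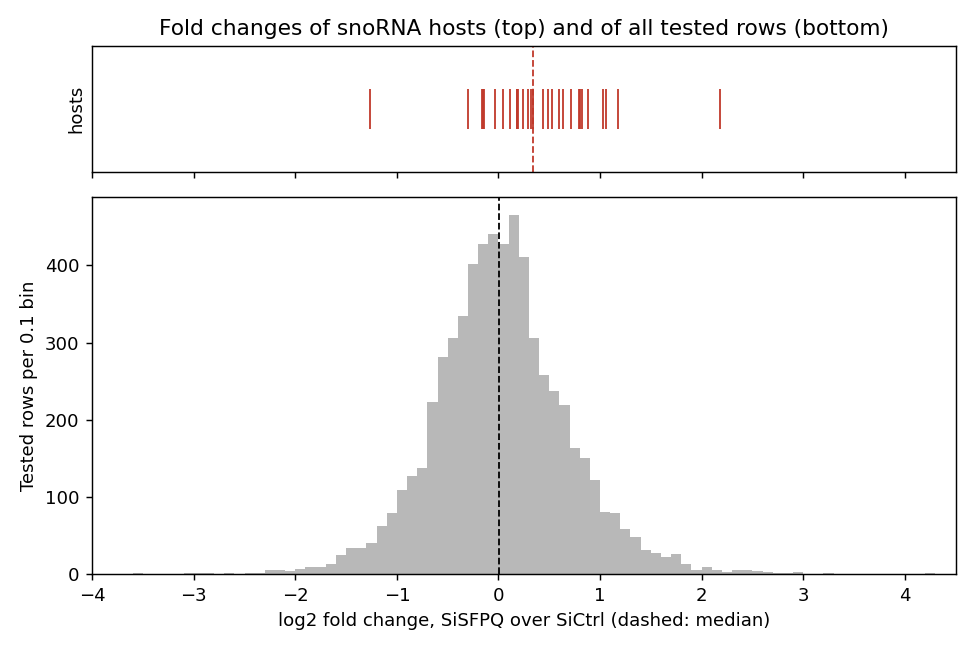
The upper panel marks the log2 fold change (SiSFPQ over SiCtrl) of each of the 29 tested hosts as a vertical tick, and the lower panel is a histogram of the 6325 tested rows in bins of 0.1; dashed lines are the medians, 0.34 for hosts and 0.01 for all rows. Host ticks run from -1.27 (SNHG33) to 2.19 (SNHG30), and 23 of 29 lie above 0.

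As a share of each library, the 30 hosts together took 4.36%, 4.69% and 4.44% of the counts in SiSFPQ libraries, against 3.51%, 3.53% and 3.42% in SiCtrl libraries. Wilson 95% intervals, which cover counting error only, spanned 4.32% to 4.39% for SiSFPQ replicate 1 and 3.50% to 3.56% for SiCtrl replicate 2, the nearest libraries of the 2 groups. SNHG9 alone held 32.2% of all host counts. Without it the shares were 3.18%, 3.22% and 3.10% in SiSFPQ libraries and 2.24%, 2.32% and 2.20% in SiCtrl libraries, so the groups stayed apart without their largest row.

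**Figure D2:**
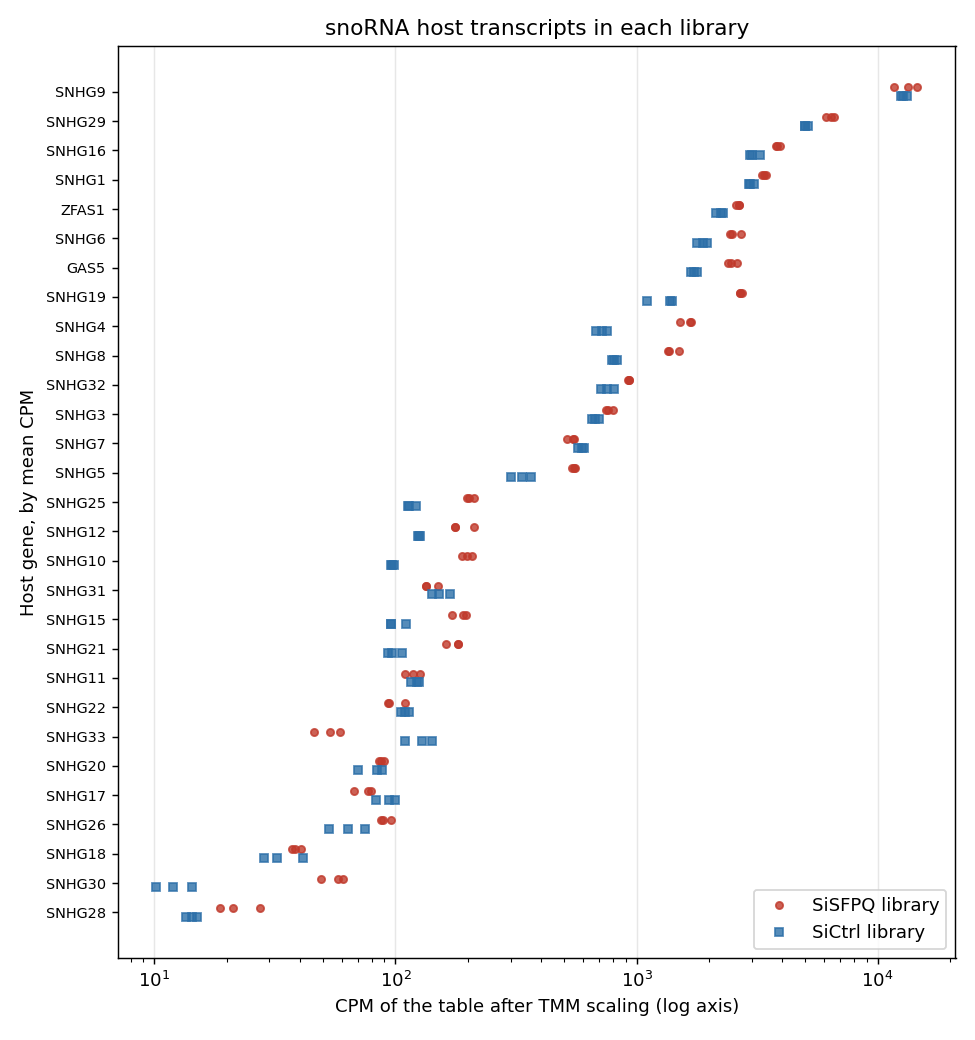
Each row is a host, ordered by mean CPM, with its CPM in the 3 SiSFPQ libraries (red circles) above that in the 3 SiCtrl libraries (blue squares) on a log axis. The SiSFPQ circles lie right of every SiCtrl square for SNHG29 at 6133 to 6595 CPM against 4983 to 5138 CPM, left of them for SNHG33 at 46.1 to 58.8 CPM against 109 to 141 CPM, and on both sides of them for SNHG9.

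Hosts of box C/D snoRNAs moved in 1 direction: of 12 that carry only C/D snoRNAs, 11 were called higher, 0 lower and 1, SNHG18, was not called. Their median log2 fold change was 0.39. Among all tested rows 24.5% were called higher and 24.0% lower. All of the 12 but SNHG18 and SNHG30 averaged at least 50 CPM, a level at which 31.4% of rows were higher and 34.9% lower. Box C/D snoRNAs are named for a C box (TGATGA, written as DNA) near the 5′ end and a D box (CTGA) near the 3′ end. A search of the letters found the D box in the last part of all 24 C/D snoRNAs of these hosts that had a GENCODE 29 sequence (the final stretch when each is cut into 3 equal parts) and TGATGA in the first part of 18. The snoRNAs of the C/D hosts with the largest changes, and of the C/D host with the most counts, are shown 5′ to 3′ with both boxes in capitals (GENCODE 29, GRCh38).
SNORD7, in SNHG30, chr17:35573657-35573753, plus strand: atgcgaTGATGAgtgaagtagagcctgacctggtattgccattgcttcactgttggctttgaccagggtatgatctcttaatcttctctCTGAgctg
SNORD60, in SNHG19, chr16:2155023-2155105, minus strand: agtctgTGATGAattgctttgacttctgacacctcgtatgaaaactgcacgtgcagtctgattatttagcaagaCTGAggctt
SNORD104, in SNHG25, chr17:64146083-64146152, plus strand: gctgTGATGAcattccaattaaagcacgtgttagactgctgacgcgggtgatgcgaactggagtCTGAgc
SNORD49A, in SNHG29, chr17:16440036-16440106, plus strand: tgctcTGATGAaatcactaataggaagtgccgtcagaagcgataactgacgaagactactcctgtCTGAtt

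SNHG30 (ENSG00000267321, chromosome 17, 35568050 to 35574843), the host of SNORD7, had 60.3, 49.2 and 57.5 CPM in SiSFPQ libraries, against 14.3, 10.2 and 11.97 CPM in SiCtrl libraries. These rest on 79, 79 and 89 raw counts in SiSFPQ and 20, 15 and 16 in SiCtrl. Every SiSFPQ library was far above every SiCtrl library, and the rise was the largest among the hosts, at a log2 fold change of 2.19 ± 0.20 (SE; edgeR, adjusted p = 3.1e-25). SNHG30 is among the 14 hosts whose exons overlap coding exons, so its counts may include reads from outside the host.

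SNHG19 (ENSG00000260260, chromosome 16, 2151103 to 2155358), the host of SNORD60, had 2685, 2736 and 2696 CPM in SiSFPQ libraries, against 1406, 1376 and 1104 CPM in SiCtrl libraries. The SiSFPQ libraries lay close together and SiCtrl replicate 3 was the lowest of all, with no overlap between groups. The log2 fold change was 1.06 ± 0.05 (SE; edgeR, adjusted p = 1.2e-105). The adjusted p was less extreme with other tools, 3.1e-21 with DESeq2 and 5.1e-15 with limma-voom. Its exons in GENCODE 29 overlap no coding exon.

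SNHG25 (ENSG00000266402), which hosts SNORD104, had 212, 202 and 197 CPM in SiSFPQ libraries, against 122, 113 and 113 CPM in SiCtrl libraries (log2 fold change 0.81; edgeR, adjusted p = 1.4e-17). SNHG5 (ENSG00000203875), the host of SNORD50A and SNORD50B, had 542, 548 and 554 CPM in SiSFPQ libraries, against 334, 366 and 302 CPM in SiCtrl libraries (log2 fold change 0.71; edgeR, adjusted p = 1.9e-27). In both genes the libraries of each group kept to their own range. SNHG26, the host of SNORD93, averaged 90.4 ± 4.42 CPM in SiSFPQ and 63.8 ± 10.8 CPM in SiCtrl (SD, n = 3 each; log2 fold change 0.49; edgeR, adjusted p = 0.00020).

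The C/D hosts with the most counts rose by smaller steps. SNHG29 (ENSG00000175061, chromosome 17, 16438767 to 16480249) carries SNORD49A, SNORD49B and SNORD65 and had 6428, 6595 and 6133 CPM in SiSFPQ libraries, against 4983, 5138 and 5004 CPM in SiCtrl libraries. SNHG16 (ENSG00000163597), the host of SNORD1A, SNORD1B and SNORD1C, had 3941, 3791 and 3836 CPM in SiSFPQ libraries, against 2960.1, 3252 and 3024 CPM in SiCtrl libraries. The groups were apart in both, with log2 fold changes of 0.34 ± 0.04 and 0.32 ± 0.04 (SE; edgeR, adjusted p = 4.2e-15 and 1.2e-12).

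SNHG6 (ENSG00000245910), which hosts SNORD87, had 2452, 2701 and 2482 CPM in SiSFPQ libraries, against 1894, 1967 and 1785 CPM in SiCtrl libraries (log2 fold change 0.44; edgeR, adjusted p = 4.9e-20). SNHG32 (ENSG00000204387), once annotated as the coding gene C6orf48, hosts SNORD48, a common reference RNA in microRNA assays, and SNORD52. It had 917, 934 and 933 CPM in SiSFPQ libraries, against 805, 755 and 711 CPM in SiCtrl libraries (log2 fold change 0.29; edgeR, adjusted p = 2.5e-07). All 3 SiSFPQ libraries exceeded all 3 SiCtrl libraries for each of these genes.

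ZFAS1 (ENSG00000177410), which starts head to head with the antiviral gene ZNFX1 and hosts SNORD12, SNORD12B and SNORD12C, had 2649.7, 2654 and 2583 CPM in SiSFPQ libraries, against 2236, 2288 and 2136 CPM in SiCtrl libraries. SNHG1 (ENSG00000255717, chromosome 11, 62851833 to 62856444) is the host of SNORD22 and of SNORD25 to SNORD31, 8 small RNAs in all. Its levels were 3384, 3450.1 and 3319 CPM in SiSFPQ libraries, against 2963, 3065 and 2915 CPM in SiCtrl libraries. Here the steps were small beside those of SNHG19 but still larger than the spread within groups, with log2 fold changes of 0.24 ± 0.05 for ZFAS1 and 0.18 ± 0.04 for SNHG1 (SE; edgeR, adjusted p = 4.7e-07 and 0.00013). SNHG18, the host of SNORD123, was the exception, with 38.7 ± 1.61 CPM in SiSFPQ and 34.0 ± 6.63 CPM in SiCtrl (SD, n = 3 each; log2 fold change 0.18 ± 0.17 SE; edgeR, adjusted p = 0.40).

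The hosts that carry both classes were also higher. GAS5 (ENSG00000234741, chromosome 1, 173851424 to 173868882), named for its rise in growth-arrested cells and a known decoy for the glucocorticoid receptor, carries 11 small RNAs in RefSeq, 10 of them C/D, among them SNORD44 and SNORD47. It had 2461, 2610.5 and 2387 CPM in SiSFPQ libraries, against 1675, 1786 and 1731 CPM in SiCtrl libraries. SNHG12 (ENSG00000197989), with SNORD99 and 3 H/ACA snoRNAs, had 176, 211 and 177 CPM in SiSFPQ libraries, against 126, 124 and 126 CPM in SiCtrl libraries. Neither gene had overlapping groups, and the log2 fold changes were 0.52 ± 0.05 and 0.59 ± 0.09 (SE; edgeR, adjusted p = 4.3e-28 and 5.8e-10).

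**Figure D3:**
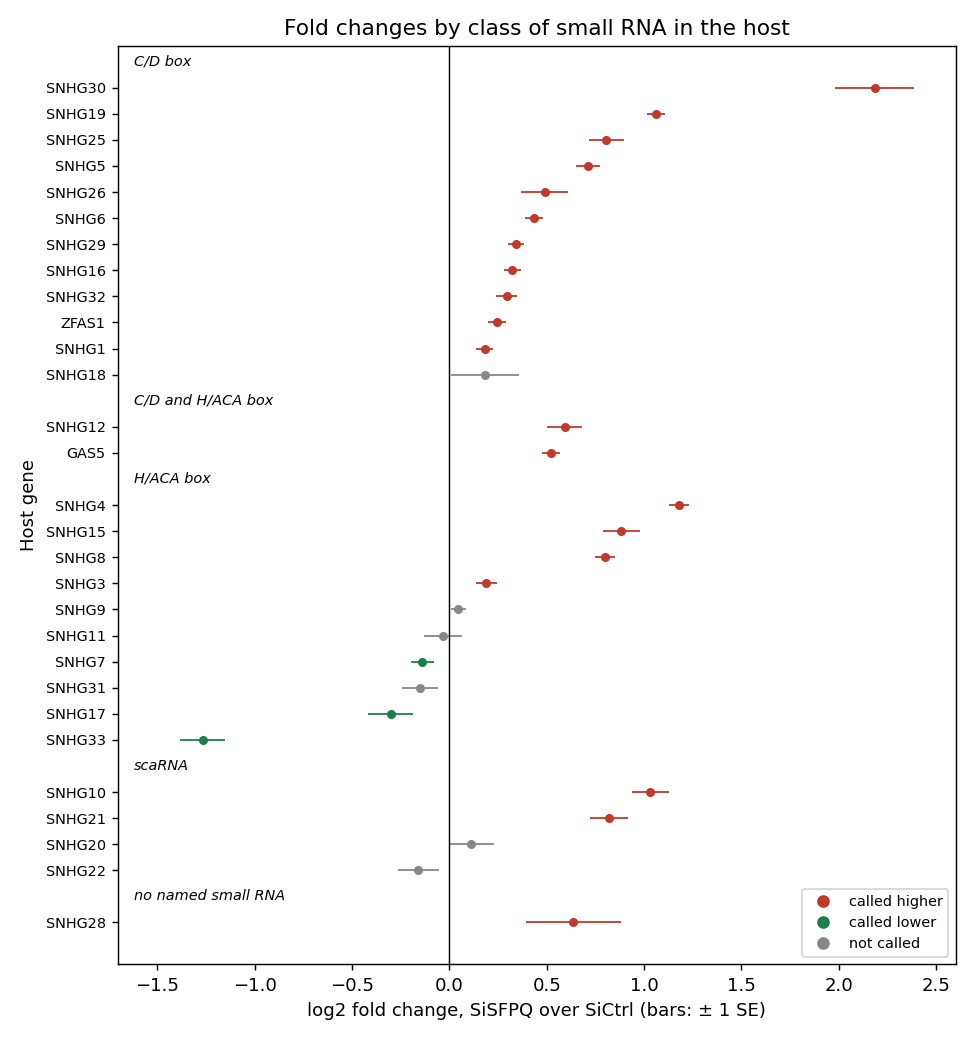
Each point is the log2 fold change (SiSFPQ over SiCtrl) of 1 tested host with ± 1 SE, grouped by the class of small RNA in its listed span and coloured by its edgeR call at an adjusted p of 0.05. All 12 C/D box points lie right of 0, 11 of them called higher; the 10 H/ACA box points run from -1.27 (SNHG33) to 1.18 (SNHG4), with 4 called higher, 3 lower and 3 not called.

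Hosts of box H/ACA snoRNAs went both ways, as did all rows at 50 CPM or more, with 31.4% called higher and 34.9% lower. Of 10 hosts that carry only H/ACA snoRNAs, all above that level, 4 were called higher, 3 lower and 3 were not called. Their median log2 fold change was 0.01. The 3 lower calls became 1, SNHG33, without SiSFPQ replicate 1. The difference between the C/D and H/ACA hosts was not tested. Among hosts without coding exon overlap, 6 of 7 C/D hosts were called higher and 0 lower, and 2 of 7 H/ACA hosts were called higher and 2 lower. Of all 2803 tested rows without such overlap, 719 were higher and 691 lower. Of those C/D hosts, SNHG1, SNHG25 and SNHG26 still overlap an opposite-strand row with at least 1% of their count. H/ACA snoRNAs end in the letters ACA, as a rule a few bases before the 3′ end. Of the 17 distinct ones of the 10 H/ACA hosts with a GENCODE 29 sequence, 16 held ACA within 6 bases of that end. The snoRNAs of H/ACA hosts that rose (SNHG8, SNHG15) and of one that fell (SNHG33) are shown with that ACA in capitals (GENCODE 29, GRCh38).
SNORA24, in SNHG8, chr4:118279190-118279320, plus strand: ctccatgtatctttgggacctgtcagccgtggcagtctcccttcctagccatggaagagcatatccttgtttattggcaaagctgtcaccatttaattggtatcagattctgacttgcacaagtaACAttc
SNORA9, in SNHG15, chr7:44985378-44985510, minus strand: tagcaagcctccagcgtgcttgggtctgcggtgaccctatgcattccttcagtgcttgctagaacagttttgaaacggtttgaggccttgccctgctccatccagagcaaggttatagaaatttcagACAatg
SNORA63D, in SNHG33, chr3:183451857-183451988, plus strand: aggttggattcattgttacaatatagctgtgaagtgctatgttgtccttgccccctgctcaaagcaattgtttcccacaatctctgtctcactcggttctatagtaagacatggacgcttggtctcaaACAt

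SNHG4 (ENSG00000281398, chromosome 5, 139274102 to 139284899), the host of SNORA74A and SNORA74D, had 1668, 1512 and 1685 CPM in SiSFPQ libraries, against 718, 753 and 676 CPM in SiCtrl libraries. Each SiSFPQ library held more than any SiCtrl library (log2 fold change 1.18 ± 0.05 SE; edgeR, adjusted p = 1.0e-112). Its exons overlap on the same strand with those of MATR3, a nuclear matrix RNA-binding protein gene, so the 2 cannot be told apart in these counts. SNHG8 (ENSG00000269893) had 1363, 1498 and 1354 CPM in SiSFPQ libraries, against 804, 829.6 and 792 CPM in SiCtrl libraries (log2 fold change 0.80; edgeR, adjusted p = 1.3e-52). SNHG15 (ENSG00000232956) had 191, 172 and 195 CPM in SiSFPQ libraries, against 95.6, 110.1 and 95.8 CPM in SiCtrl libraries (log2 fold change 0.88; edgeR, adjusted p = 3.8e-19). The GENCODE 29 exons of SNHG8 and SNHG15 overlap no coding exon, and neither gene has overlapping groups. In 6 hosts the listed exonic length exceeds the listed span, so some of their counts may come from outside the coordinates given. The lengths are 6855 bases against a span of 1363 in SNHG8 and 3943 against 3662 in SNHG15. The others are SNHG3, SNHG9, SNHG12 and SNHG25.

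SNHG3 (ENSG00000242125) carries SNORA73A and SNORA73B, the U17 RNAs, which act in cleavage of the ribosomal RNA precursor and not in pseudouridylation. It had 748, 800.4 and 761 CPM in SiSFPQ libraries, against 698, 673 and 653 CPM in SiCtrl libraries, a small but separate rise (log2 fold change 0.19 ± 0.06 SE; edgeR, adjusted p = 0.0019). Its exons overlap on the same strand with RCC1, the nucleotide exchange factor of the GTPase Ran. SNHG9 (ENSG00000255198, chromosome 16, 1964526 to 1965508), the host of SNORA78, had 11672, 14623 and 13418 CPM in SiSFPQ libraries, against 13232, 12552 and 12706 CPM in SiCtrl libraries. The SiSFPQ libraries here fell on both sides of the SiCtrl ones, replicate 1 below and replicates 2 and 3 above, and the log2 fold change of 0.05 ± 0.04 was not called (SE; edgeR, adjusted p = 0.34). It was called without SiSFPQ replicate 1 (0.13, adjusted p = 0.013) and with plain library totals in place of TMM (0.11, adjusted p = 0.012), and its adjusted p ran from 0.012 to 0.84 over the alternatives. The listed span of SNHG9 covers 301 bases of the ribosomal protein gene RPS2 in RefSeq, and reads of that gene could be part of its counts, which was not tested.

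SNHG33 (ENSG00000291106, chromosome 3, 183447569 to 183455640) was the host that fell furthest, with 58.8, 46.1 and 53.7 CPM in SiSFPQ libraries, against 141, 109 and 129 CPM in SiCtrl libraries. Its raw counts were 77, 74 and 83 in SiSFPQ and 198, 161 and 173 in SiCtrl, and every SiSFPQ library was below every SiCtrl library. The log2 fold change was -1.27 ± 0.12 (SE; edgeR, adjusted p = 1.2e-25), against the direction of most other hosts. Its listed span overlaps no coding exon in GENCODE 29, which lacks this gene, and no other row of the table.

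SNHG17 and SNHG7 were called lower by small margins. SNHG17 (ENSG00000196756) had 67.2, 79.1 and 76.9 CPM in SiSFPQ libraries, against 99.2, 93.8 and 83.0 CPM in SiCtrl libraries. SNHG7 (ENSG00000233016), with SNORA17A and SNORA17B, had 514, 545 and 549 CPM in SiSFPQ libraries, against 573, 597 and 604 CPM in SiCtrl libraries. The groups did not overlap in either, but the gaps between them were narrow, and the log2 fold changes were -0.30 ± 0.12 and -0.14 ± 0.06 (SE; edgeR, adjusted p = 0.022 and 0.038). The call of SNHG17 was lost without SiSFPQ replicate 1 (adjusted p = 0.12) or SiCtrl replicate 1 (0.11), and its adjusted p ran from 0.0095 to 0.21 over the alternatives. That of SNHG7 was lost without SiSFPQ replicate 1 (0.16) or 2 (0.060) or SiCtrl replicate 2 (0.056) or 3 (0.068), and its adjusted p ran from 0.023 to 0.29.

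SNHG11 (ENSG00000174365, chromosome 20, 38446343 to 38450940) lies 10980 bases from SNHG17 on the other strand, and both carry copies of SNORA71. It had 109, 126 and 118 CPM in SiSFPQ libraries, against 123, 116 and 125 CPM in SiCtrl libraries, with overlapping groups (log2 fold change -0.03 ± 0.10 SE; edgeR, adjusted p = 0.81). A copy from each host is shown to make the likeness visible, with the closing ACA in capitals; they are 79.9% identical by edit distance, the closest of the 4 pairs, which start at 76.1% (GENCODE 29, GRCh38).
SNORA71E, in SNHG11, chr20:38448084-38448215, plus strand: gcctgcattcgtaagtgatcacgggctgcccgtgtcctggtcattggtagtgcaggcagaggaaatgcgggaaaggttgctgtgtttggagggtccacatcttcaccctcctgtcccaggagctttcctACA
SNORA71C, in SNHG17, chr20:38429670-38429803, minus strand: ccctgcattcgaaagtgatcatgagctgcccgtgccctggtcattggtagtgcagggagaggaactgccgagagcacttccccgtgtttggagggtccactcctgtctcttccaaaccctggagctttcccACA
SNHG31 (ENSG00000229267), the host of SNORA70I, had 150.4, 133 and 134 CPM in SiSFPQ libraries, against 141, 169 and 151 CPM in SiCtrl libraries, and was not called (log2 fold change -0.15 ± 0.09 SE; edgeR, adjusted p = 0.17).

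Of the 4 hosts of scaRNAs, 2 were called higher and 0 lower, where 24.5% of all tested rows were higher and 24.0% lower. All 4 averaged at least 50 CPM, a level at which 31.4% of rows were higher and 34.9% lower. SNHG10 (ENSG00000247092, chromosome 14, 95521937 to 95534751), the host of SCARNA13, had 199, 189 and 208 CPM in SiSFPQ libraries, against 95.6, 96.5 and 98.8 CPM in SiCtrl libraries. SNHG21 (ENSG00000250988), the host of SCARNA15, had 181, 162 and 181 CPM in SiSFPQ libraries, against 97.1, 93.1 and 106 CPM in SiCtrl libraries. Both groups of libraries were tight and well apart, with log2 fold changes of 1.03 ± 0.09 and 0.82 ± 0.10 (SE; edgeR, adjusted p = 3.8e-26 and 3.5e-16). Both have exons over coding exons of the other strand, GLRX5 for SNHG10 and FSD2 for SNHG21. SNHG22 (ENSG00000267322), with SCARNA17, had 109, 92.8 and 94.4 CPM in SiSFPQ libraries, against 106, 113 and 110.0 CPM in SiCtrl libraries (log2 fold change -0.16 ± 0.11 SE; edgeR, adjusted p = 0.21). SNHG20, with SCARNA16, averaged 87.3 ± 1.85 CPM in SiSFPQ and 80.7 ± 9.58 CPM in SiCtrl (SD, n = 3 each; edgeR, adjusted p = 0.43).

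The 2 SNHG genes with no named small RNA had few counts. SNHG28 averaged 22.5 ± 4.51 CPM in SiSFPQ and 14.2 ± 0.76 CPM in SiCtrl (SD, n = 3 each) and was called higher (log2 fold change 0.64 ± 0.24 SE; edgeR, adjusted p = 0.021). That call was lost without SiSFPQ replicate 1 (adjusted p = 0.13), SiCtrl replicate 2 (0.055) or SiCtrl replicate 3 (0.065), and its adjusted p ran from 0.010 to 0.21 over the alternatives. SNHG27 was not tested, with raw counts of 0, 7 and 1 in SiSFPQ libraries and 0, 3 and 1 in SiCtrl libraries.

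Opposite-strand rows with a sizeable share of a host's counts were called higher along with it. The table has 20 rows that overlap a host, and 7 were tested, all on the opposite strand. The 6 that held at least 1% of their host's count were all called higher, as were their hosts, where 24.5% of all tested rows were. The seventh, ENSG00000267546 over SNHG16, held 0.252% and was not called (log2 fold change -0.08 ± 0.33 SE; edgeR, adjusted p = 0.86). ENSG00000308907, over ZFAS1, held 51.5% as many counts as ZFAS1 and averaged 1397 ± 33.6 CPM in SiSFPQ and 1098 ± 51.3 CPM in SiCtrl (SD, n = 3 each; log2 fold change 0.35). STX5-DT, which overlaps SNHG1, held 34.2% as many counts as SNHG1 and had a log2 fold change of 0.29, and ENSG00000306789, over SNHG6, held 34.1% and had 0.35. ENSG00000301153, over SNHG25, held 71.9% and had 0.62, ENSG00000272668, over SNHG28, held 254% and had 0.66, and GAS5-AS1, which carries 1.28% as many counts as GAS5, had 0.79. Because strands were not kept apart, reads in the overlaps cannot be told apart between a host and its partner. The 11 tested hosts with neither coding exon overlap nor an overlapping row at 1% or more of the host count, tested or not, included SNHG5, SNHG8, SNHG15, SNHG19 and SNHG32, which were called higher, and SNHG17 and SNHG33, which were called lower.

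**Figure D4:**
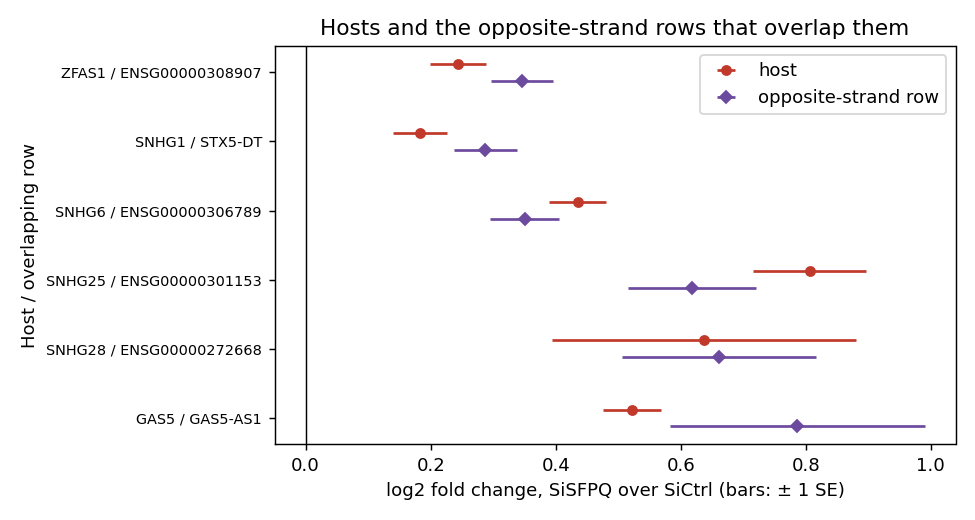
For each of 6 hosts the red circle is the host's log2 fold change (SiSFPQ over SiCtrl) and the purple diamond that of the opposite-strand row that overlaps it, both with ± 1 SE. All 12 points lie above 0, from 0.18 for SNHG1 to 0.81 for SNHG25.

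Levels of different hosts were compared per kilobase of listed exonic length. SNHG9 stood highest, at 13399 CPM per kilobase in SiSFPQ and 12986 in SiCtrl, followed by SNHG19 at 2219.5 in SiSFPQ and 1063 in SiCtrl. SNHG1 had 784 CPM per kilobase in SiSFPQ and 690.5 in SiCtrl, and SNHG29 had 676 in SiSFPQ and 534 in SiCtrl. At the low end SNHG28 had 3.97 in SiSFPQ and 2.52 in SiCtrl, and the untested SNHG27 had 0.24 in SiSFPQ and 0.14 in SiCtrl. Across the 29 tested hosts, which differ in length and in counting error, Spearman's rho of log2 fold change with mean CPM was 0.07, with listed span -0.17 and with the number of hosted small RNAs -0.27, given as a description.

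The start sites of the hosts were read from RefSeq (GRCh38.p14), whose promoter table had an entry for 26 of the 30. A pyrimidine start was counted when the listed first base was C and the next 4 or more letters were each C or T, on the strand of the gene. It was found in 7 of the 26 hosts, or 26.9%, against 4.07% of all 35116 promoters and 56.5% of 85 ribosomal protein gene promoters, the class in which TOP starts are best known. Among hosts called higher 6 of 17 had it, among those called lower 0 of 3, and among those not called 1 of 5, SNHG18. With a start allowed from 5 bases before to 10 after the listed base, the numbers were 14 of 26 hosts, 27.1% of all promoters and 76.5% of ribosomal protein gene promoters. Under that wider rule 9 of 17 hosts called higher, 2 of 3 called lower and 3 of 5 not called had such a start. The table lists 1 or 2 starts for each of these hosts, and a start used in these cells could differ.

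The windows of 30 bases on each side of the listed start show the difference in letters, with the C and T run from the first transcribed base in capitals. The first 6 are the called hosts that hold the run at the listed base, all of them higher. The last 5 are called hosts that lack it at that base. SNHG29, SNHG16 and SNHG1 have the most counts among such higher hosts, and SNHG7 and SNHG17 were lower. SNHG16, SNHG7 and SNHG17 do hold a pyrimidine start under the wider rule. SNHG33, also lower and not shown, holds none under either rule.
SNHG4, chr5:139274071-139274130, plus strand: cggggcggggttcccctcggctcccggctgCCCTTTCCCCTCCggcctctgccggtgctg
SNHG12, chr1:28581844-28581903, minus strand: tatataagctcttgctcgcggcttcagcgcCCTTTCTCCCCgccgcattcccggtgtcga
SNHG19, chr16:2155329-2155388, minus strand: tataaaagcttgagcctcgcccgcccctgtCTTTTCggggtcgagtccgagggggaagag
SNHG32, chr6:31834886-31834945, plus strand: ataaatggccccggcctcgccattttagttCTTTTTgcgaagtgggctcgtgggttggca
SNHG5, chr6:85678704-85678763, minus strand: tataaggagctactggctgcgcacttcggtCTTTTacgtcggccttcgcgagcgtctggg
ZFAS1, chr20:49278612-49278671, plus strand: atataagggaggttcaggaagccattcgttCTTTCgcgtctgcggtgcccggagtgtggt
SNHG29, chr17:16438957-16439016, plus strand: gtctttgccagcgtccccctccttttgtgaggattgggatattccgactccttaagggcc
SNHG16, chr17:76557734-76557793, plus strand: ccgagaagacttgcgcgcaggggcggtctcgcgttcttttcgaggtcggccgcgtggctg
SNHG1, chr11:62855856-62855915, minus strand: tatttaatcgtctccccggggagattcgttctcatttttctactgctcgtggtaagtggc
SNHG7, chr9:136728155-136728214, minus strand: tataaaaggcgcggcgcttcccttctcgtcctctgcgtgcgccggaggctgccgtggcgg
SNHG17, chr20:38435299-38435358, minus strand: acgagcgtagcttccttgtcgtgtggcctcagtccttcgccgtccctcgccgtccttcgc
Among the largest rises, the listed start opens with such a run in SNHG4 (log2 fold change 1.18) and SNHG19 (1.06). It does not in SNHG30 (2.19) or SNHG10 (1.03), which hold none under the wider rule either. A match of letters is a description and not evidence of a TOP motif in use.

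Other non-coding rows that hold an annotated snoRNA or scaRNA on their strand were called at about the rate of all tested rows. Of all tested rows 24.5% were called higher and 24.0% lower. Of the 90 rows that hold such a small RNA 36 were tested, 10 were called higher, 8 lower and 18 were not called. Their median log2 fold change was 0.02. Of the 17 tested rows among them without coding exon overlap, 3 were higher and 7 lower, with a median of -0.24. Many of these small RNAs are unnamed predictions. Of the 13 tested rows over a named one 5 were higher and 4 lower, with a median of 0.32, near the 0.34 of the SNHG, GAS5 and ZFAS1 hosts. The 3 with the most counts were higher. ENSG00000264772, which spans 3 snoRNAs and shares exons with EIF4A1, a gene for a translation initiation helicase, averaged 12571 ± 427 CPM in SiSFPQ and 8837 ± 58.1 CPM in SiCtrl (SD, n = 3 each; log2 fold change 0.51). DANCR, a long non-coding RNA that holds back differentiation and hosts a single annotated snoRNA, averaged 3630 ± 102 CPM in SiSFPQ and 1904 ± 40.0 CPM in SiCtrl (log2 fold change 0.93). ENSG00000293643, whose span lies over that of DANCR and may share its reads, had a log2 fold change of 0.87. The table has 1 small RNA row of its own, SCARNA9, with raw counts of 5, 5 and 4 in SiSFPQ libraries and 12, 13 and 11 in SiCtrl libraries (log2 fold change -1.42 ± 0.43 SE; edgeR, adjusted p = 0.0029). DESeq2 did not call it (unadjusted p = 0.029, adjusted p = 0.10).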

How the data were processed

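The deposited table held raw read counts per gene (whole numbers, not normalised), which the authors made from poly(A)-selected stranded libraries, per the labels' protocols; the sources used here name no aligner, counter, annotation or build. Of 13886 gene IDs shared with GENCODE 29 (GRCh38), 13874 overlapped the same position, so coordinates were read as GRCh38. The deposited gene length column was used only to scale levels. Totals per library, 1298658 to 1599566 counts, are of this non-coding table.

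All rows were filtered with filterByExpr and fitted in edgeR 4.0.16 (R 4.3.3; TMM factors, robust quasi-likelihood, group alone, two-sided, Benjamini-Hochberg). CPM are TMM-scaled. Data for this comparison were also simulated (6041 genes tested), with a fixed dispersion that was not estimated from these libraries. There 93 of 100 genes with a true log2 fold of 1 and 34 of 100 with one of 0.5 were recovered. Recovery in the real data may differ. Replicates differed by more than sampling noise (chi-square per degree of freedom 1.19 to 1.33), so none was merged. Every host past the filter was named; values in every library were printed from 100 CPM on and for the 3 largest called changes each way. Hosts, lists and tests were chosen with earlier results of these data known. Coding overlap used GENCODE 29 exons, or the listed span where it lacked the gene. Alternatives included DESeq2 1.42.0 and limma 3.58.1 (voom).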

Additional observations from a re-analysis of the deposited data

How the results depend on the processing

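RLE and upper-quartile scaling, TMM factors without the host rows, limma-voom, a filter of 1 CPM in 3 libraries (which kept 11651 rows) and a replicate block kept the counts of hosts called higher and lower within 1.5 times. Hosts called lower, and H/ACA hosts among them, numbered 1 (SNHG33) with plain library totals, with no filter and with DESeq2; the cause was not tested. The median log2 fold change of the hosts was 0.41 with plain totals, where that of all rows was 0.07, and 0.38 with no filter, where SNHG27 enters. Rows without coding exon overlap alone gave 9 of 15 tested hosts higher with a median of 0.29, and 6 C/D and 2 H/ACA hosts higher. That setting called 11 of 18 tested other host rows (3 higher, 8 lower). Counts of other host rows in this section include SCARNA9. The cause of these shifts was not tested. DESeq2 called 8 other host rows and 0 small RNA rows (1 at an unadjusted p under 0.05, and edgeR called 1); the cause was not tested. Settings chosen after the data were examined were hosts without overlap (5 higher, median 0.18) and other host rows over named small RNAs (9 called), both with fewer rows. Leaving out 1 library at a time gave 19 to 20 hosts higher, 1 to 3 lower and medians of 0.32 to 0.37, with C/D hosts higher at 11, H/ACA hosts higher at 4 to 5 and lower at 1 to 3, other host rows called at 15 to 20 and small RNA rows at 1. Replicate numbers did not pair the libraries (correlations of deviations -0.004, 0.001 and 0.007), and the replicate block gave 20 hosts called higher and 3 lower with a median of 0.34. Of 450 values of single hosts under alternatives, 430 kept direction and call, 18 lost a call (SNHG7, SNHG17 and SNHG28), 2 gained one (SNHG9) and 0 of the called values reversed. Low counts limit SNHG27, SNHG28 and SNHG30.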
